A study of Mus musculus with 6 samples.

Results

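The data were examined for 32 imprinted genes in 4T1 cells, a mouse mammary carcinoma line, and in an axitinib-resistant (AxR) line derived from it. The 32 genes, from 14 imprinted clusters, were a list of symbols matched to the Ensembl identifiers of the count file, which holds 53465 genes. An imprinted gene is expressed mainly from the chromosome inherited from only 1 parent. The choice is set in the germ line by DNA methylation of a control region, and it is carried through cell division by the methyltransferase DNMT1 together with proteins such as ZFP57 and TRIM28. Imprinted genes lie in clusters in which a long noncoding RNA often silences protein-coding neighbours on the same chromosome, and many of them adjust growth of the fetus and placenta and are expressed little in adult epithelia.

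Parental (P) cells and AxR cells were each measured in 3 RNA-sequencing libraries, made from poly(A)-selected RNA with a stranded kit. AxR cells came from metastases that arose after the primary tumor was removed from Balb/c mice given 100 mg/kg/day of the VEGF receptor inhibitor axitinib, and they were then kept in 0.5 μM axitinib for longer than 2 months. P cells carry no treatment label, and the study describes them as vehicle-treated, although the growth label of all 6 samples names 0.5 μM axitinib. The AxR group is 1 line, so growth in the animal, exposure to the drug, selection of cells and culture history cannot be told apart, and neither the labels nor the methods say whether the 3 libraries of a line were separate cultures. P-values therefore measure the spread between these libraries, which may be technical.

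Each library held between 15495260 and 17294525 estimated counts, and levels are given as CPM, the count of a gene scaled to a common normalized library size. A count of 3, taken as the floor, was worth between 0.171 and 0.196 CPM, and such floors cover counting error only. Of all genes, 13550 had enough counts for the test, and 63.5% of those passed an adjusted p of 0.05, with 32.8% higher and 30.8% lower in AxR cells. The epithelial markers Krt8, Krt18, Krt19, Epcam, Cdh1 and Cldn4 were all expressed, with a summed level of 1787 to 1947 CPM in P and 2533 to 2616 CPM in AxR libraries. They did not move together, since 4 were higher in AxR cells and 2 were lower, Krt19 and Cldn4 (log2 fold changes of -1.31 and -0.17). The summed level of 7 fibroblast markers was 22.5 to 24.1 CPM in P and 9.91 to 11.2 CPM in AxR libraries and was nearly all Pdgfra, while Col3a1, Lum and Thy1 had no count. The summed levels of 6 leukocyte, 5 endothelial and 6 lung epithelial markers were at most 0.635 CPM in every library, and Tyrobp, Fcer1g, Cd3e, Kdr, Emcn, Scgb1a1 and Nkx2-1 had no count. The part of the shifts in epithelial markers and Pdgfra in the results was not tested. AxR replicates 1 and 3 differed more from each other than any other pair of replicates, with a chi-square per degree of freedom of 19.2 against 4.99 to 8.25 in the other pairs.

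ZFP57 recognises the hexanucleotide TGCCGC when it is methylated, and its transcript was among those that fell in AxR cells, as given below. Promoters came from a RefSeq table on GRCm38.p6, with windows of 300 bases from 250 bases before to 50 bases after an annotated start. Windows were examined for 26 of the 32 members. Impact, Cdkn1c, H19, Peg10, Rtl1 and Sgce were not among them, so the share given for members does not cover these genes. The hexanucleotide was present on either strand in 10 of the 41 windows of members, which is 24.4%, against 11.6% of all 32851 windows. It holds a CpG, and the median number of CpG dinucleotides was 11 in windows of members against 7 in all windows. Overlapping windows, such as those of Mest that start at 30737800 and 30737803, were counted separately. Whether the shares differ beyond CpG content was not tested. The windows that held it belonged to Mest, Nap1l5, Plagl1, Nnat, Snrpn, Grb10, Igf2, Meg3 and Zim1. A match is a description of the letters and not a site of binding. The first 5 are shown because each of these genes had more than 3 counts in at least 1 library, with TGCCGC or its reverse complement GCGGCA in capitals. They lie at chr6:30737800-30738099 on the plus strand for Mest, chr6:58907077-58907376 on the minus strand for Nap1l5, chr10:13090582-13090881 on the plus strand for Plagl1, chr2:157559828-157560127 on the plus strand for Nnat, and chr7:60005150-60005449 on the minus strand for Snrpn.
Mest: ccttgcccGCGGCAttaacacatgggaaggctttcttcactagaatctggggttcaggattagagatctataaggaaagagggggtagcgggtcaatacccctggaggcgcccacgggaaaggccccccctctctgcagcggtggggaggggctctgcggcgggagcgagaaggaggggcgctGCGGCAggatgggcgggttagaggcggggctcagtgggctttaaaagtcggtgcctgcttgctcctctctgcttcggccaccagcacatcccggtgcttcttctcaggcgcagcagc
Nap1l5: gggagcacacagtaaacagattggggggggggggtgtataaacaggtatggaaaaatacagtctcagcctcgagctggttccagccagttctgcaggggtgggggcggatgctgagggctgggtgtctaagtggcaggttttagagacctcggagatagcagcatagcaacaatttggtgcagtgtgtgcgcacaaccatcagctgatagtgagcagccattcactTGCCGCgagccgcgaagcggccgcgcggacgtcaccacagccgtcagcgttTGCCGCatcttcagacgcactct
Plagl1: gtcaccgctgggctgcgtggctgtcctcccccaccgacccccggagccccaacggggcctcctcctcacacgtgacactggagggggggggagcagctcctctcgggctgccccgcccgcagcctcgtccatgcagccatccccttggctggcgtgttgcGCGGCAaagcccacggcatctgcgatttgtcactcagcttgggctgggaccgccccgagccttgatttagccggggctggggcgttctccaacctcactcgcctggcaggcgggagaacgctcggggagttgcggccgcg
Nnat: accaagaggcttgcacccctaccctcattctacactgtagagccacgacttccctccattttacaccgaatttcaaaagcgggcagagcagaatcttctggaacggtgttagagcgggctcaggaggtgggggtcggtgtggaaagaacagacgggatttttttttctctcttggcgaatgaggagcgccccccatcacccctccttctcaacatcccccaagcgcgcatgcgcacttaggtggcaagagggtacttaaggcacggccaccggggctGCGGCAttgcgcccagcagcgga
Snrpn: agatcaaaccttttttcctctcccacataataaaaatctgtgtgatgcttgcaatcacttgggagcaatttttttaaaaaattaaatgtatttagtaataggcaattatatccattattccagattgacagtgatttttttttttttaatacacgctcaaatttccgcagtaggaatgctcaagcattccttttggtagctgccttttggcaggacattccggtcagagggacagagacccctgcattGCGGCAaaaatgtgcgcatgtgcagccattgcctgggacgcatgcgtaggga
Mest and Nap1l5 each held 2 matches, and Plagl1, Nnat and Snrpn held 1 each. The 5 windows held 17, 17, 26, 17 and 7 CpG dinucleotides in this order, where the median of all windows was 7.

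Of the 32 members, 12 had no count in any library, 5 had at most 3 counts in every library, 4 were detected with too few counts to be tested, and 11 were tested. Among the 26 protein-coding members 34.6% were tested and 38.5% had no count, where 52.4% of all 21942 protein-coding genes were tested and 28.5% had no count. The 12 without a count were Peg3, Usp29, Zim1, Dlk1, Meg3, Mirg, Rtl1, Ddc, Ndn, Magel2, Peg10 and Sgce, and their level could be as high as 0.196 CPM, the highest floor of a library. Igf2, Rian, Grb10, Cdkn1c and Ascl2 were at or under the floor in every library, so no fold is given for them. H19, Plagl1, Slc22a18 and Nap1l5 were the 4 detected at low counts. At least 1 member was tested in 8 clusters, and none was tested in the other 6, which are those of Igf2 and H19, Peg3, Dlk1 and Meg3, Plagl1, Grb10 and Nap1l5.

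Gnas was the most abundant member. To set different genes side by side, levels were also divided by the kb of annotated exon. That length counts every annotated exon of a gene, whether or not these cells use it, so ranks between genes are approximate. On this scale the mean in P cells was 67.4 for Gnas, 44.3 for Igf2r, 15.5 for Phlda2, 13.5 for Ube3a, 4.73 for Impact, 4.32 for Snrpn and 1.12 for Nnat, and at most 0.354 for the other 4 tested members. In AxR cells the order was Gnas with 53.7, Igf2r with 24.7, Impact with 16.4, Ube3a with 13.6, Phlda2 with 9.25 and Snrpn with 4.00 CPM per kb. On this scale Impact stood above Ube3a and Phlda2 in AxR cells and below both in P cells. The rank depends on the length used. Without division by length, Impact was below Ube3a in AxR cells (84.4 against 281 CPM) and above Phlda2 in P cells (24.3 against 17.3 CPM). Kcnq1ot1, with 93092 bases of exon, had 0.354 CPM per kb in P and 0.444 in AxR cells.

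**Figure D1:**
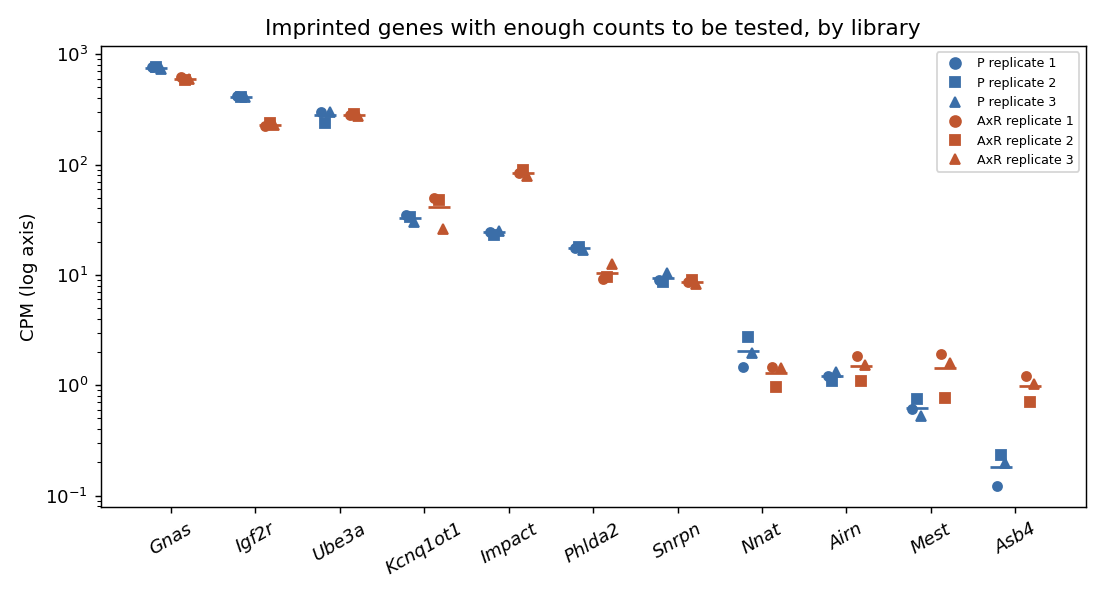
Level of the 11 tested imprinted genes in each library, in CPM on a log axis, with P libraries in blue, AxR libraries in orange, a marker shape for each replicate and a line at the mean of each line. Impact lies near 24 CPM in P and between 79.2 and 89.2 CPM in AxR libraries, and AxR replicate 3 sits apart for Kcnq1ot1.

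In AxR cells 3 members were higher (Impact, Mest and Asb4) and 3 were lower (Igf2r, Phlda2 and Gnas) with a Benjamini-Hochberg adjusted p under 0.05 in the quasi-likelihood test of edgeR. The 6 called members are 54.5% of the 11 tested, against 63.5% of all tested genes, so the share itself was near the background. The libraries of the lines did not overlap for these 6 members, as for 68.3% of all tested genes. The median log2 fold change was 0.015 over the 11 members and 0.0058 over all tested genes, and the median absolute log2 fold change was 0.67 and 0.35. Of the 11 tested members, 3 were called higher with a change of at least 1 on the log2 scale, against 7.99% of all tested genes, and 0 were called lower by that much, against 4.72%. Asb4, with 2 to 4 counts in P libraries, passed the low-count filter only through its AxR libraries. Mest would not have passed it on its P libraries alone. With at least 10 counts asked of every library neither Asb4 nor Mest was tested and 1 member, Impact, was higher. The sizes on the higher side are therefore a description.

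Impact, which encodes an inhibitor of the amino acid-sensing kinase GCN2 and is expressed from the paternal chromosome, had the smallest adjusted p of the members (ENSMUSG00000024423.5, chromosome 18 of GRCm38, the build of all positions, from 12955852 to 12992950). Its level was 24.4, 23.2 and 25.2 CPM in P replicates 1 to 3 and 84.7, 89.2 and 79.2 CPM in AxR replicates 1 to 3. Every AxR library was more than 3 times every P library. The log2 fold change was 1.80 (SE 0.067, edgeR quasi-likelihood adjusted p = 9.15e-12), a fold of 3.48. Genes around it were also higher. Of the 8 tested genes on no imprinted list within 1 Mb, 7 passed the threshold as higher and 0 as lower. Their median log2 fold change was 0.76 with a highest value of 1.37, and over the whole of chromosome 18 the median of 318 tested genes was 0.50. The value of Impact was above that of each of these neighbours, and the part of the chromosome in its change was not tested.

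The Igf2r cluster on chromosome 17 holds a receptor and the long noncoding RNA that silences it. Igf2r encodes the cation-independent mannose 6-phosphate receptor, which removes IGF2 from the cell surface and carries enzymes to the lysosome, and it is expressed from the maternal chromosome (ENSMUSG00000023830.13, from 12682406 to 12769664 on the minus strand). Igf2r had 420, 409 and 409 CPM in P and 224, 240 and 227 CPM in AxR replicates 1 to 3. The lines were far apart relative to the spread within each, with a fold of 0.559 and a log2 fold change of -0.84 (SE 0.047, edgeR quasi-likelihood adjusted p = 7.44e-10). The 13 tested neighbours within 1 Mb had a median of 0.050, with 3 higher and 2 lower, and the lowest was -0.60. Airn, the paternal antisense RNA that starts within Igf2r, was expressed at a low level of 1.22, 1.10 and 1.3 CPM in P and 1.84, 1.08 and 1.54 CPM in AxR libraries. The libraries of Airn overlapped and its log2 fold change of 0.31 (SE 0.28) did not pass the threshold (edgeR adjusted p = 0.357). The annotated genes overlap by 28354 bp on opposite strands. The kit marks strand, but the strand setting of the counting is not given in the sources used here. Airn RNA is known to be largely unspliced, and what share of it a poly(A) library holds was not tested.

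Igf2, the growth factor that Igf2r removes, had no count in any P library and 0, 1 and 1 counts in AxR libraries. H19, the maternal noncoding RNA that shares its enhancers with Igf2, had 7, 7 and 12 counts in P and 0, 4 and 2 counts in AxR replicates 1 to 3 (0.537 ± 0.213 and 0.123 ± 0.128 CPM, SD, n = 3 each). The lines did not overlap for H19, which had too few counts for the test. When no low-count filter was applied, its log2 fold change was -2.06 (edgeR quasi-likelihood adjusted p = 0.00848).

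The adjoining cluster on distal chromosome 7 is silenced in part by Kcnq1ot1, a long noncoding RNA made from the paternal chromosome. Kcnq1ot1 (ENSMUSG00000101609.1, from 143203458 to 143296549 on the minus strand) had 34.8, 33.8 and 30.3 CPM in P and 49.8, 48.1 and 26.2 CPM in AxR replicates 1 to 3. AxR replicates 1 and 2 were above every P library and AxR replicate 3 was below every P library. The log2 fold change of 0.32 (SE 0.28) did not pass the threshold with all libraries (edgeR quasi-likelihood adjusted p = 0.373). Without AxR replicate 3 it was 0.57 (edgeR adjusted p = 3.33e-06). Among all alternatives its adjusted p (edgeR, DESeq2 or limma) ran from 3.33e-06 to 0.681, so the call rested on that library. Malat1 and Neat1, other noncoding RNAs of the nucleus that were looked up after this was seen, were also lowest among AxR libraries in replicate 3. Malat1 had 2263, 2105 and 1112 CPM in AxR replicates 1 to 3 against 1041 to 1146 CPM in P libraries, and Neat1 had 493, 497 and 366 CPM against 167 to 201 CPM. Their part in the value of Kcnq1ot1 was not tested.

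Phlda2, which encodes a pleckstrin homology domain protein that limits placental growth and is made from the maternal chromosome, was lower in AxR cells (ENSMUSG00000010760.5, from 143501545 to 143503150 on the minus strand). It had 17.4, 17.8 and 16.8 CPM in P and 9.14, 9.50 and 12.5 CPM in AxR replicates 1 to 3. AxR replicate 3 was the nearest to P but stayed below it. The log2 fold change was -0.74 (SE 0.11, edgeR quasi-likelihood adjusted p = 3.61e-05). Slc22a18, a maternal gene for an organic cation transporter-like protein next to Phlda2, had 5, 4 and 8 counts in P and 5, 12 and 23 counts in AxR replicates 1 to 3. The lines overlapped for Slc22a18, and AxR replicate 3 was its highest library. With no low-count filter the log2 fold change of Slc22a18 was 1.19 (edgeR quasi-likelihood adjusted p = 0.0421). Cdkn1c, which encodes the cell cycle inhibitor p57, had 1 count in each P library and none in AxR libraries. Ascl2 had counts only in AxR replicate 2, where there were 3.

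Between H19 and Osbpl5, 11 genes were tested, 8 of them members or other imprinted genes. Cd81, a tetraspanin, had a log2 fold change of 1.46, and its level of 36.0 ± 0.968 CPM in P and 99.2 ± 6.58 CPM in AxR cells (SD, n = 3 each) was the largest rise of the domain. Tssc4 was also higher, with a log2 fold change of 0.67. Osbpl5 and Tnfrsf23 were lower (-0.40 and -0.44), and Nap1l4 and Tnfrsf22 did not pass the threshold (0.037 and -0.041). Cars, on no imprinted list, was higher with a log2 fold change of 0.59. Genes of the domain thus moved in both directions, and AxR replicate 3 was the AxR library nearest to P for Cd81, Tssc4, Phlda2, Nap1l4 and Osbpl5, and the one farthest from P for Tnfrsf22, Tnfrsf23 and Cars.

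**Figure D2:**
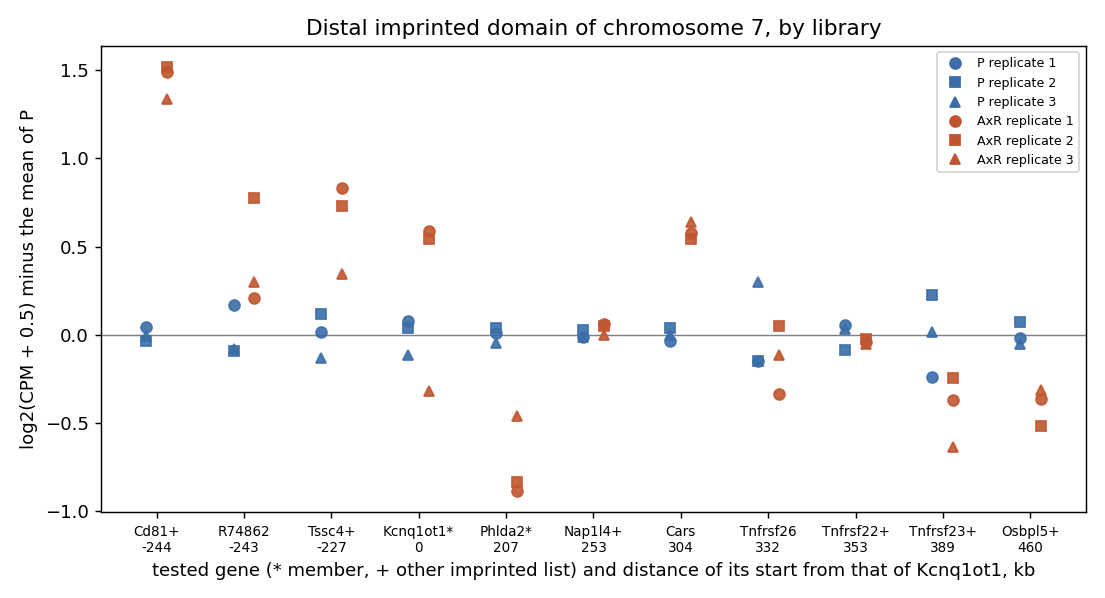
Every tested gene between H19 and Osbpl5 on distal chromosome 7 in the order of its start relative to the start of Kcnq1ot1 in kb, as log2(CPM + 0.5) minus the mean of the 3 P libraries, with blue for P, orange for AxR and a marker shape for each replicate. For Kcnq1ot1, AxR replicates 1 and 2 lie at 0.59 and 0.54 and AxR replicate 3 at -0.32, while all 3 AxR libraries lie above P for Cd81 and below P for Phlda2.

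On chromosome 6, Peg10, derived from a retrotransposon and needed for the placenta, and Sgce, which encodes epsilon-sarcoglycan, had no count in any library. Asb4, the maternal gene of the same cluster and a component of ubiquitin ligases, had 2, 4 and 3 counts in P and 19, 11 and 18 counts in AxR replicates 1 to 3 (0.183 ± 0.0558 and 0.977 ± 0.256 CPM, SD, n = 3 each). All AxR libraries were above all P libraries. The ratio of the summed counts, 48 against 9, was 5.34 after scaling for depth (95% exact binomial interval from 2.59 to 12.4, for counting error only). The fitted log2 fold change of Asb4 was 2.37 (SE 0.45, edgeR quasi-likelihood adjusted p = 0.000276), where its 4 tested neighbours had a median of 0.36, with 2 higher and 1 lower. The lower one, Gng11, which encodes a G protein gamma subunit, had 13.5, 15.9 and 15.1 CPM in P replicates 1 to 3 and no count in any AxR library. Gng11 was thus detected in P cells only, and its level in AxR libraries could be as high as 0.191 CPM, the highest floor among them.

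Mest, a paternal gene for a hydrolase-like protein, is the sole member listed for its cluster, also on chromosome 6 (ENSMUSG00000051855.15, from 30723547 to 30748465). Mest had 0.608, 0.751 and 0.522 CPM in P and 1.91, 0.765 and 1.59 CPM in AxR replicates 1 to 3. The lines did not overlap, but AxR replicate 2 was only just above P replicate 2. The P libraries held 9.67, 13.2 and 7.52 estimated counts, and on these alone Mest would not have passed the low-count filter. The size of its rise is therefore a description. The log2 fold change was 1.17 (SE 0.37, edgeR quasi-likelihood adjusted p = 0.0118). Without AxR replicate 1 it was 0.92 and missed the threshold (edgeR adjusted p = 0.0672), and over all alternatives the adjusted p (edgeR, DESeq2 or limma) ran from 0.00232 to 0.0672. The estimated counts of Mest were not whole numbers in any library, so some of its reads were shared with other genes. Its 11 tested neighbours had a median of -0.31, and 9 of them were lower. Copg2, which overlaps Mest by 912 bp on the other strand, was lower with a log2 fold change of -0.19. Nap1l5, a paternal retrogene within an intron of Herc3, had 1, 1 and 0 counts in P and 0, 5 and 2 counts in AxR replicates 1 to 3, and the log2 fold change of Herc3 was -0.020 (edgeR quasi-likelihood adjusted p = 0.867).

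The human counterpart of the central chromosome 7 cluster is affected in Prader-Willi and Angelman syndromes. The tested members of this cluster did not differ detectably between the lines. Snrpn, a paternal gene for a spliceosome protein, had 9.0, 8.55 and 10.4 CPM in P and 8.70, 8.99 and 8.19 CPM in AxR replicates 1 to 3, with overlapping lines. Its log2 fold change was -0.11 (SE 0.12, edgeR quasi-likelihood adjusted p = 0.422). Snrpn shares transcribed sequence with Snurf, and reads of the pair can be split between them. Ube3a, which encodes a ubiquitin ligase and is imprinted only in neurons, had 297, 237 and 301 CPM in P and 281, 288 and 275 CPM in AxR replicates 1 to 3. P replicate 2 was its lowest library, the lines overlapped, and the log2 fold change was 0.015 (SE 0.079, edgeR adjusted p = 0.879). The sign of the Ube3a value changed with library size only and without P replicate 2, to -0.0054 and -0.088. Ndn and Magel2, the paternal genes of the same cluster, had no count, and Snhg14, the paternal noncoding RNA antisense to Ube3a, was higher with a log2 fold change of 0.53 (3.55 ± 1.03 and 5.11 ± 0.580 CPM, SD, n = 3 each, edgeR quasi-likelihood adjusted p = 0.0323).

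Chromosome 2 holds Gnas and Nnat in separate clusters. Gnas encodes the stimulatory G protein alpha subunit and, from other promoters, imprinted products that counts per gene do not separate (ENSMUSG00000027523.19, from 174284320 to 174346744). Gnas had 762, 767 and 735 CPM in P and 625, 581 and 596 CPM in AxR replicates 1 to 3, with every AxR library below every P library. The log2 fold change was -0.33 (SE 0.046, edgeR quasi-likelihood adjusted p = 1.73e-05), and the 16 tested neighbours within 1 Mb had a median of -0.33, with 2 higher and 9 lower. The change of Gnas was thus the size of that of the genes around it. Nnat, a paternal gene for a small membrane protein of the endoplasmic reticulum, had 1.46, 2.71 and 1.96 CPM in P and 1.46, 0.957 and 1.42 CPM in AxR replicates 1 to 3. The lines overlapped for Nnat at P replicate 1 and AxR replicate 1. Its log2 fold change of -0.67 (SE 0.29) lay just outside the threshold (edgeR quasi-likelihood adjusted p = 0.0543). The call changed with TMM normalization (adjusted p = 0.0498) and in 3 other alternatives, and over all alternatives the adjusted p (edgeR, DESeq2 or limma) ran from 0.0230 to 0.296. Blcap, within which Nnat lies, was lower with a log2 fold change of -0.41, and the 26 tested neighbours had a median of -0.42.

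**Figure D3:**
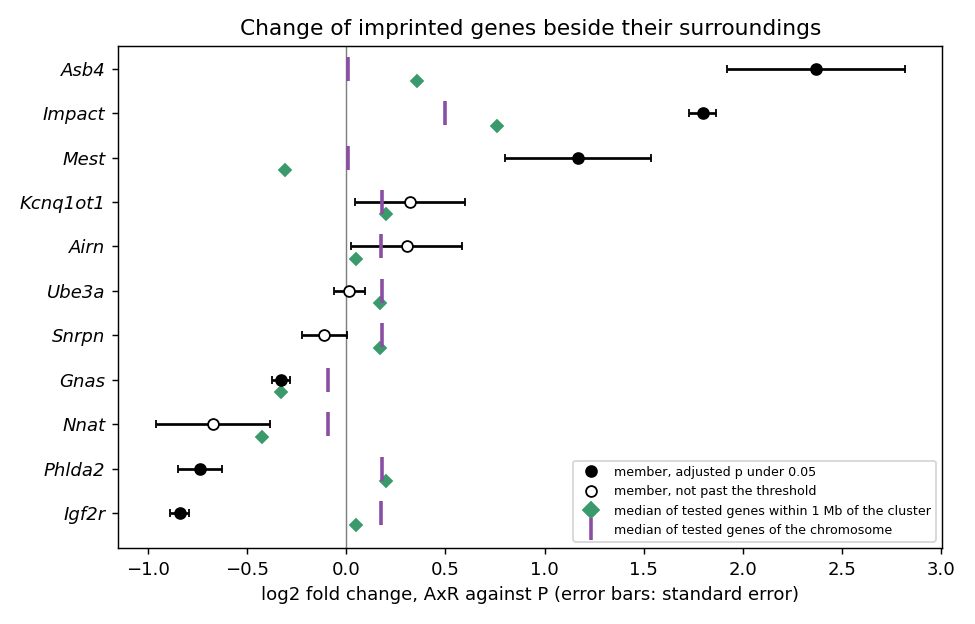
Log2 fold change of the 11 tested imprinted genes in AxR against P cells with its SE (black where the adjusted p was under 0.05, white otherwise), beside the median of the tested genes on no imprinted list within 1 Mb of the cluster (green) and the median of the tested genes of the chromosome (purple). Gnas and its neighbours are both at -0.33, whereas Igf2r at -0.84, Phlda2 at -0.74 and Mest at 1.17 lie away from neighbours at 0.050, 0.20 and -0.31.

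The remaining clusters were silent or nearly so. Peg3, a paternal zinc finger gene, Usp29, which starts 146 bp away on the other strand, and Zim1 had no count, although 11 genes within 1 Mb of them were tested, 4 of which were higher. In the Dlk1 and Meg3 cluster on chromosome 12, Dlk1, Meg3, Mirg and Rtl1 had no count and Rian had 1 count in each of P replicate 1 and AxR replicate 1, while 14 neighbours were tested. Plagl1, a paternal zinc finger transcription factor gene, had 9, 7 and 7 counts in P and 3, 4 and 5 counts in AxR replicates 1 to 3, without overlap but with too few counts to be tested. With no low-count filter its log2 fold change was -0.92 and did not pass the threshold (edgeR quasi-likelihood adjusted p = 0.260). Grb10, an adaptor that restrains insulin and IGF receptor signalling, had 1 count in AxR replicate 3 and none elsewhere, and Ddc, the aromatic amino acid decarboxylase gene beside it, had no count.

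Taking each member's usual expressed chromosome from textbook knowledge, 17 members are paternal, 11 are maternal, and 4 (Grb10, Ddc, Ube3a and Gnas) depend on tissue or promoter. Over all tested genes 32.8% were higher and 30.8% lower. Of the paternal members 6 were tested, with 2 higher and 0 lower by edgeR, and 1, Nnat, lower at an unadjusted p under 0.05. Of the maternal members 3 were tested, with 1 higher and 2 lower, and of the other 4, 2 were tested, with 0 higher and 1 lower by edgeR, which also left 0 higher at an unadjusted p under 0.05. The counts per gene do not separate the parental chromosomes, and no difference between the paternal and maternal groups was tested.

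A list of 52 other imprinted genes and cluster neighbours was counted in the same way. In it 28 genes were tested, 15 had no count, 6 had at most 3 counts in every library, 3 were otherwise too low, 10 were higher and 9 were lower, which is 67.9% called against 63.5% of all tested genes, and the median log2 fold change was 0.040. Cobl, an actin nucleator gene next to Grb10, fell most, from 26.9 ± 1.07 to 0.706 ± 0.200 CPM (n = 3 libraries each, ± SD). Its log2 fold change was -5.22 (SE 0.15, edgeR quasi-likelihood adjusted p = 5.36e-13). In counts, Cobl had 1322 in P and 35 in AxR libraries in all. On its AxR libraries alone, with 11, 8 and 16 counts, Cobl would not have passed the low-count filter. It was not tested when at least 10 counts were asked of every library, so the size of its fall is a description. Smoc1, a gene for a secreted calcium-binding protein, rose most, from 1, 2 and 1 counts in P to 16, 16 and 27 counts in AxR replicates 1 to 3. Smoc1 passed the low-count filter only through its AxR libraries, so the size of its rise is a description. The ratio of its summed counts was 14.8 after scaling for depth (95% exact binomial interval from 5.48 to 56.0, for counting error only). Along with Smoc1, Cd81 was the other gene of the list whose rise reached 1 on the log2 scale. For imprinted genes inside host genes, Mcts2 was lower (-0.89, adjusted p = 1.16e-05) while its host H13 did not pass the threshold (0.042, adjusted p = 0.517), both by edgeR. Conversely, Peg13 did not pass (-0.0011) and its host Trappc9 was higher (0.59). Near Peg10 the genes Casd1, Ppp1r9a and Pon3 were higher, with log2 fold changes of 0.66, 0.63 and 0.91, while Pon2 did not pass the threshold (0.12, edgeR adjusted p = 0.0941), Tfpi2 had 2 counts in P replicate 3 alone and Calcr had none.

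The machinery that reads and keeps imprints was expressed in both lines. Of 24 genes that set or maintain DNA methylation and imprints, 21 were tested, 8 were higher and 7 were lower, which is 71.4% called against 63.5% of all tested genes, with a median log2 fold change of 0.066. Zfp57, the zinc finger protein gene introduced above with its hexanucleotide, fell most, from 13.1 ± 1.45 to 2.50 ± 0.805 CPM (SD, n = 3 each). It had 232, 240 and 176 counts in P and 34, 30 and 60 counts in AxR replicates 1 to 3, so the highest AxR library was well under the lowest P library. The log2 fold change was -2.38 (SE 0.18, edgeR quasi-likelihood adjusted p = 2.33e-08). Tet1, a gene for an enzyme that oxidises methylcytosine, was lower at a low level, from 0.890 ± 0.362 to 0.262 ± 0.0757 CPM (SD, n = 3 each), with a log2 fold change of -1.70. Tet1 had 3, 4 and 6 counts in AxR replicates 1 to 3 and passed the low-count filter only through its P libraries, so this size is a description. The de novo methyltransferase gene Dnmt3b had a log2 fold change of -0.91 and Dnmt3a one of 0.51. Zfp445, a second zinc finger gene for imprints, was lower (-0.20) at 188 ± 2.84 and 164 ± 6.95 CPM (SD, n = 3 each). Hells, Uhrf1 and Trim28, which encode a chromatin remodeller, a hemimethylated DNA reader and the corepressor bound by ZFP57, were higher, with log2 fold changes of 0.54, 0.48 and 0.44. Dnmt1 was at 216 ± 4.87 CPM in P and 226 ± 15.6 CPM in AxR cells (SD, n = 3 each) and did not pass the threshold (log2 fold change 0.066, edgeR quasi-likelihood adjusted p = 0.308). Ctcfl and Dppa3 had no count, and Dnmt3l had 1 count in all.

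**Figure D4:**
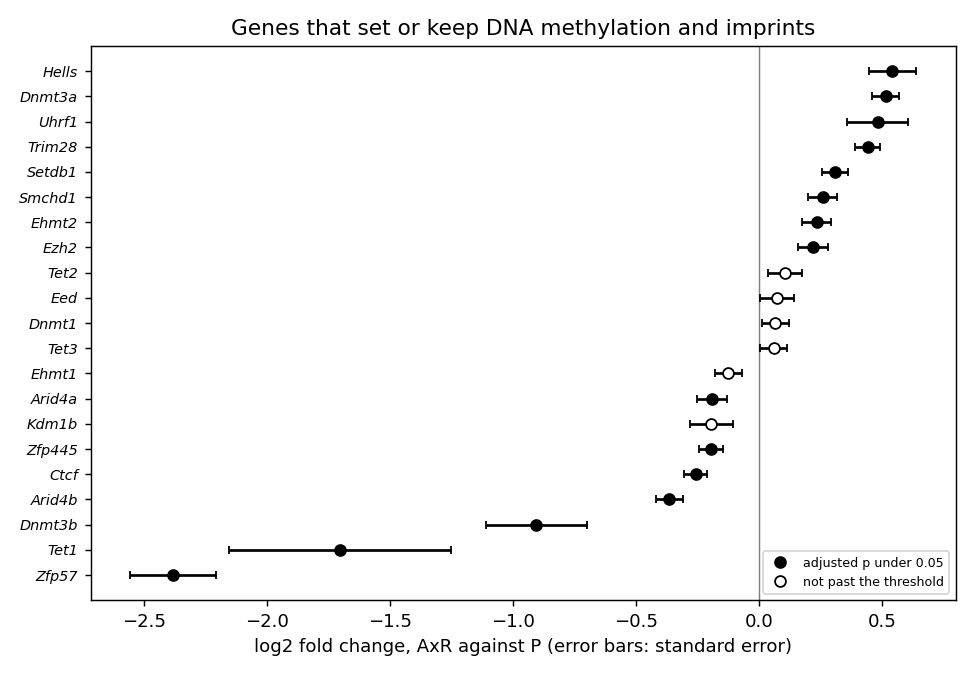
Log2 fold change in AxR against P cells of the 21 tested genes that set or keep DNA methylation and imprints, with standard errors, black where the adjusted p was under 0.05 and white otherwise. Zfp57 at -2.38 and Tet1 at -1.70 lie apart from the others, which are between -0.91 and 0.54.

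Among the 5 members with a window printed above, Mest was higher, Snrpn and Nnat did not pass the threshold, and Plagl1 and Nap1l5 were too low to be tested.

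Of 13 genes of the IGF axis on which several imprinted genes act, 8 were tested, 1 was higher and 3 were lower, which is 4 of 8 called against 63.5% of all tested genes. The receptor genes Igf1r and Insr did not pass the threshold (log2 fold changes of -0.086 and -0.081), and Irs2, an adaptor of both receptors, fell most, from 217 ± 0.363 to 108 ± 10.6 CPM (SD, n = 3 each, log2 fold change -1.01, edgeR quasi-likelihood adjusted p = 2.46e-09). Igf2bp3, a gene for a protein that binds Igf2 RNA, rose from 0.470 ± 0.231 to 1.23 ± 0.269 CPM (SD, n = 3 each, log2 fold change 1.39, edgeR adjusted p = 0.00479). This rise rests on few counts, and Igf2bp3 was not tested when at least 10 counts were asked of every library. Igf2bp3 would not have passed the low-count filter on its P libraries alone, so the size of its rise is a description. In these bulk libraries fewer expressing cells and less RNA per cell cannot be told apart.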

How the data were processed

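RNA of the 4T1 P and AxR lines, 3 libraries each, was sequenced from poly(A)-selected, stranded libraries. Per the labels and the methods, the authors checked reads with FastQC 0.11.5, aligned them to GRCm38 (GENCODE M16) with STAR 2.6.0a, and deposited estimated counts per gene from RSEM 1.3.1, before filtering and normalization. RSEM divides reads that match several genes, so a library held from 10.3% to 10.7% of non-whole values. After rounding, low counts were removed by filterByExpr, upper-quartile factors were computed, and edgeR 4.0.16 (R 4.3.3) was run with its robust quasi-likelihood F test, with line as the only term and Benjamini-Hochberg adjustment over 13550 genes (threshold 0.05). The standard error is the log2 fold change divided by the square root of F. Tests were tried on simulated counts. Symbols, positions and exon lengths came from GENCODE M21, in which 53360 of 53465 identifiers were found.

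The members and lists were chosen with earlier results of these data known. All 32 members are accounted for, and from the other lists the text names genes that moved by at least 1 on the log2 scale and the highest and lowest called. Other genes of the lists named, and Cars, Gng11, Malat1 and Neat1, were chosen after their values were seen. Alternatives were TMM, library size only, DESeq2 1.42.0, limma-voom (limma 3.58.1), no low-count filter, at least 10 counts in every library, a replicate block, each library left out, and an added fold threshold. Total counts ranged from 15495260 to 17294525. No library was left out of the main test.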

Additional observations from a re-analysis of the deposited data

How the results depend on the processing

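The 6 called members were the same 6 under DESeq2, limma-voom and the replicate block, and with TMM normalization or library size only Nnat was added as lower (log2 fold change -0.68 and -0.69, adjusted p = 0.0498 and 0.0442 from edgeR). Requiring at least 10 counts in every library left 9 members to test, with 1 higher (3 before), because Mest and Asb4 were no longer tested and Nnat was added as lower. In the IGF axis it left 7 genes to test with 0 higher by edgeR, also at an unadjusted p under 0.05, because Igf2bp3 was no longer tested, and DESeq2 and limma-voom on the usual filter each called 1. With no low-count filter H19 and Slc22a18 were added. When a change of at least 1 on the log2 scale was also asked for, there were 1083 genes higher and 640 lower, 0 members lower (3 by edgeR, DESeq2 and limma-voom without it, and 4 by edgeR at an unadjusted p under 0.05), 2 and 1 of the other imprinted genes higher and lower, 0 and 2 of the maintenance genes (8 higher without it, also at an unadjusted p under 0.05), and 1 IGF axis gene lower, which follows from the added criterion. The sign of Ube3a reversed with library size only (-0.0054) and without P replicate 2 (-0.088), its range with each library left out being -0.088 to 0.078, while its adjusted p stayed above 0.12 in each. With each library left out, 3 or 4 members were higher and 3 or 4 were lower, Mest was lost without AxR replicate 1, Slc22a18 was gained without P replicate 3 or AxR replicate 1, Kcnq1ot1 was gained without AxR replicate 3 (0.57), and over all alternatives the log2 value lay from 1.76 to 1.84 for Impact and from -0.87 to -0.82 for Igf2r.

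The replicate numbers did not pair the libraries, since the correlations of the deviations of same-numbered libraries were -0.0213, -0.0061 and -0.0217. With the replicate block 3 members were higher and 3 lower, and no call among the members changed. At this depth the 17 of 32 members with at most 3 counts in every library could not be compared, and Asb4 and Mest rest on few counts.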
